A study of Mus musculus with 23 samples.

Results

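The extracellular matrix is the protein scaffold between cells, and chronic inflammation of the gut can end in fibrosis, in which that scaffold thickens and stiffens. Fibroblasts, myofibroblasts and smooth muscle cells make most of it: fibrillar collagens give tensile strength, basement membrane collagens form the sheet under epithelium and around vessels, lysyl oxidases crosslink collagen and elastin, small proteoglycans space the fibrils, and matricellular proteins tune how cells hold on to the scaffold. Genes were taken by name from these families, with earlier results of these data known. Shares of them called, set beside those of all genes, are therefore descriptive. The list held 35 genes. Of them, 32 had a probe set annotated to that gene alone among the 18194 genes measured: all 6 fibrillar chains, all 4 basement membrane chains, all 7 other collagens, 3 of 4 crosslinking and folding genes, all 4 proteoglycans, 1 of 2 elastic fibre genes, 6 of 7 matricellular and adhesive glycoproteins, and the fibroblast protease Fap. Loxl2, Fbn1 and Spp1 have no value here. None of the values of the 32 genes stood at the lowest value of the data set, though Col16a1 and Col5a3 each read 1 same value on several arrays.

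Colon RNA of Balb/c mice was hybridised to 23 Affymetrix arrays. Untreated wild-type mice gave 5 arrays and wild-type mice given TNBS 6. Fn14 knockout mice of the same strain gave 5 untreated and 7 TNBS arrays. Fn14, the product of Tnfrsf12a, binds the cytokine TWEAK, and TNBS is a hapten that provokes colitis when given into the rectum with ethanol. The labels' protocols describe a 0.2% solution in PBS and ethanol given for 6 weeks, with the volume raised stepwise from 1 to 2 ul/g, and a harvest 3 days after dosing ended. Age and sex, how the knockout was made, whether untreated mice received solvent and whether each array is a separate mouse are not given in the sources used here. A TNBS difference therefore covers injection and solvent too, and the tests measure the spread between arrays.

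Tnfrsf12a read log2 5.86 to 7.16 in untreated wild type, 6.77 to 8.25 in wild type with TNBS, and 3.84 to 4.17 across both knockout groups, as the labels require. Epithelial markers (Epcam, Cdh1, Krt8 and 5 others) averaged 13.25 to 13.40 over all arrays, high in each group of the labelled tissue. Arrays of a group correlated at r = 0.989 to 0.998. Some arrays stood apart in the matrix genes: wild-type TNBS replicate 2 was the lowest of its group in 27 of the 32 genes (median deviation -0.37), untreated knockout replicate 3 in 25 (median deviation -0.29) and knockout TNBS replicate 7 in 13 (median deviation -0.17), while wild-type TNBS replicate 3 was the highest in 19. Keratinocyte genes (squamous epithelium list, 10 genes) averaged 3.55 to 4.88 in untreated wild type, 5.34 to 8.01 in wild type with TNBS, 3.79 to 6.63 in the untreated knockout and 4.90 to 8.85 in the knockout with TNBS.

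The 250 bases before the annotated start are shown for 3 genes whose changes with TNBS the results turn on: a fibrillar chain of each of collagens I and III, which rose in both genotypes, and the matricellular gene Tnc. They are RefSeq sequences of build GRCm38.p6, written 5′ to 3′ on the gene's own strand. Capitals mark any CCAAT motif, the TATA motif spelled TATAAA, and the GC motif spelled GGGCGG, each searched on both strands, as was the AP-1 motif spelled TGANTCA.
Col1a2, chr6:4505368-4505617, plus strand: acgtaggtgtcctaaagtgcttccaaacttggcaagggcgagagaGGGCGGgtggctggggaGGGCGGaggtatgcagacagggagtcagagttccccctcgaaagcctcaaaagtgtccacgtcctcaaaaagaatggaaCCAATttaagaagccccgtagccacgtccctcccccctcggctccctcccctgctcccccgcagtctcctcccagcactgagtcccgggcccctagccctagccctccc
Col3a1, chr1:45311288-45311537, plus strand: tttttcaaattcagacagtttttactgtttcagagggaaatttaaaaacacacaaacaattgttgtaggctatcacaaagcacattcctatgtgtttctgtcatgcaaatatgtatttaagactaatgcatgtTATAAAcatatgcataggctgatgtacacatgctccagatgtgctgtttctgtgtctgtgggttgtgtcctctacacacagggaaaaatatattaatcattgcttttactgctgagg
Tnc, chr4:64047016-64047265, minus strand: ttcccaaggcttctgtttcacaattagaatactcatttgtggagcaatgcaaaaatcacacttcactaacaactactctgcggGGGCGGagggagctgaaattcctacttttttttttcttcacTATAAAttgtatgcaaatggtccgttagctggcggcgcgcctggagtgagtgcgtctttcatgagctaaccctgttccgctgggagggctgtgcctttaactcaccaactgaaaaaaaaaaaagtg
Col1a2 carries CCAAT 109 to 105 bases before its start and GGGCGG at 205 to 200 and 188 to 183 bases. Col3a1 carries TATAAA at 117 to 112 bases, and Tnc at 126 to 121 bases, with GGGCGG at 167 to 162. RefSeq windows were at hand for 20 of the 32 genes (24 windows). CCAAT was in 33.3% of these against 33.8% of all 32851 windows, TATAAA in 20.8% against 12.4%, GGGCGG in 58.3% against 32.7%, and TGANTCA in 4.17% (Col6a1) against 6.75%. No marked motif overlaps another. A match is a description of the letters and not of a site in use. Col4a1 and Col4a2, the chains of the common collagen IV network, start on opposite strands of chromosome 8. In these windows the first base is 11312826 for Col4a1 (minus strand) and 11312805 for Col4a2 (plus strand). They lie 21 bases apart with the 2 genes overlapping there, and the gene annotation carries Col4a1 to base 11312889.

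The first question was how the matrix genes differ between TNBS and untreated colon of wild-type mice. Of the 32 genes 20 rose, none fell and 12 did not pass the test (limma, adjusted p under 0.05 over all genes; background: 10.2% of all genes rose and 6.27% fell, and of the 10485 genes at least as bright as the dimmest of the 32, 13.8% rose). The median of the 32 was 0.53 on the log2 scale, with the median of all genes at 0 to 2 decimals. For the equally bright genes the median was -0.01. Of the 32, 30 were positive (57.1% of all genes). Genes at the lowest value on every array have differences of 0 or of rounding alone. Shares of all genes above 0 therefore cannot be compared between comparisons. In 15 the groups did not overlap, each higher with TNBS (6.99% of all genes did so upward and 3.15% downward). Leaving out 1 array gave 18 to 24 genes, the most without wild-type TNBS replicate 2.

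In the knockout 19 of the 32 rose with TNBS, none fell and 13 did not pass (limma; background: 4.08% of all genes rose, 4.47% fell, and 6.19% of the equally bright genes rose). The median was 0.45, against -0.05 for the equally bright genes, and 31 of 32 were positive (39.5% of all genes). In 11 the groups did not overlap, all upward (1.97% of all genes upward, 1.9% downward). With the mean of the keratinocyte list as a covariate, which itself differs with TNBS, 10 genes rose in wild type and 2 (Col1a1 and Sparc) in the knockout, while the medians of the 32 were 0.43 and 0.29 and 25 and 24 genes stayed positive. Untreated knockout replicate 3 was low in most genes, and 15 rose without it, with Col5a1, Col6a3, Col14a1 and Bgn losing their calls at limma adjusted p = 0.057 to 0.096. The wild-type and knockout differences come from separate arrays but share 1 estimate of the spread, so the calls are not independent. In both genotypes 16 genes rose, of 514 that did so among all genes: Col1a1, Col1a2, Col3a1, Col5a1, Col5a2, Col4a1, Col4a2, Col15a1, Col18a1, Col6a1, Col6a2, Col6a3, Lox, Bgn, Fn1 and Sparc.

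**Figure D1:**
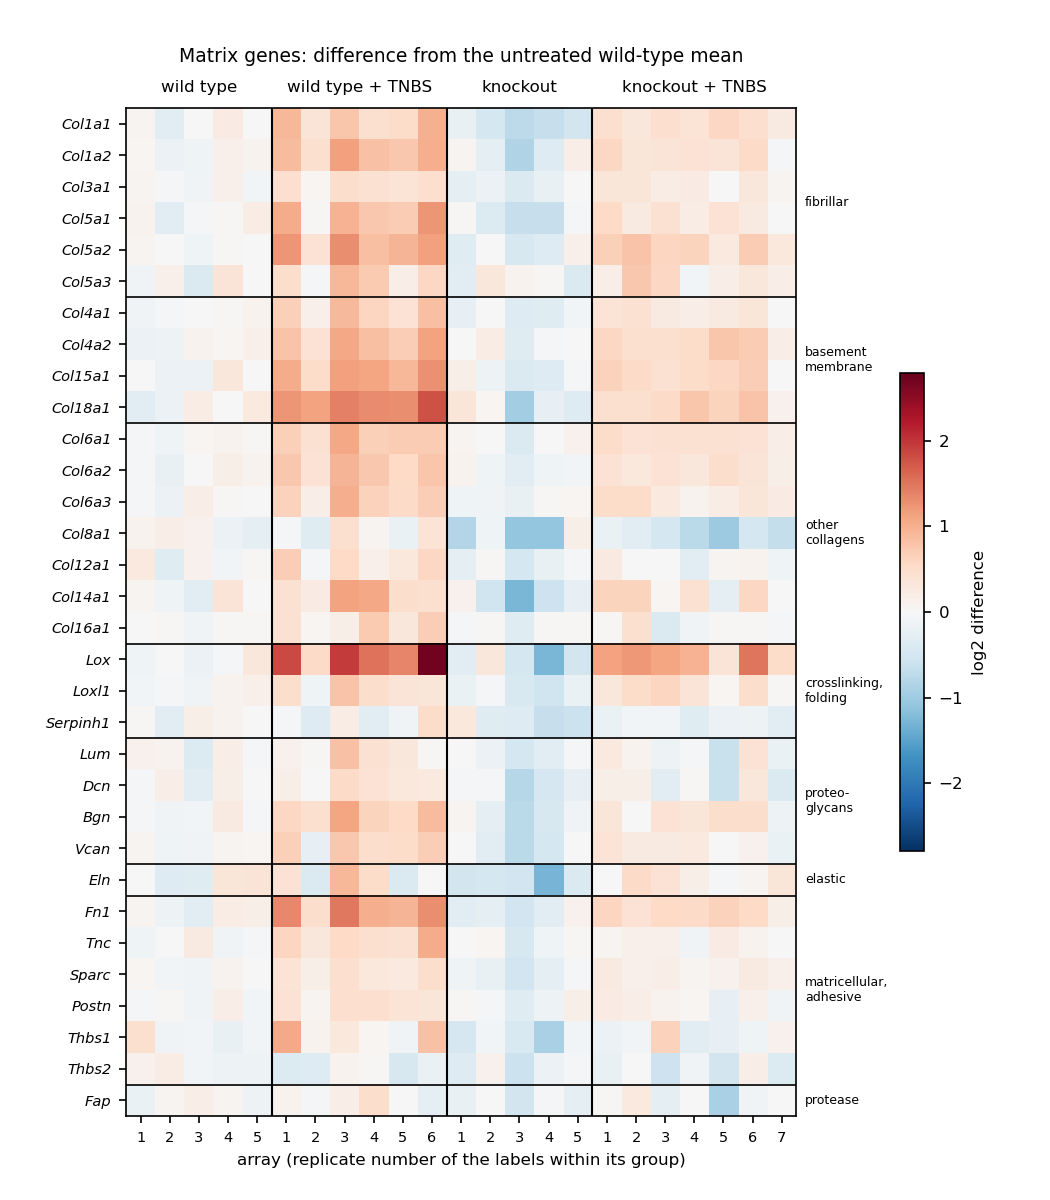
Each row is 1 of the 32 matrix genes and each column 1 of the 23 arrays, in 4 groups with the replicate number below. Colour is the log2 value minus the mean of the 5 untreated wild-type arrays. Red fills most rows of wild type with TNBS, and it is paler in replicate 2 and in the knockout with TNBS.

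Fibrillar collagens, the rope-like chains of interstitial matrix, rose in 5 of 6 cases in each genotype. Col1a1, the main chain of collagen I, read 11.35, 10.98, 11.26, 11.52 and 11.30 in untreated wild type and 11.65, 11.93 and 12.27 (lowest, median, highest) with TNBS. In the knockout it read 11.07, 10.79, 10.56, 10.64 and 10.77 untreated and 11.53, 11.74 and 11.86 with TNBS. The groups did not overlap in either genotype. Its rise was 0.67 ± 0.12 (SE; 1.59-fold, limma adjusted p = 0.000564) in wild type and 0.93 ± 0.11 (1.91-fold, adjusted p = 4.48e-05) in the knockout.

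Col1a2, the second chain of collagen I, rose by 0.84 ± 0.15 in wild type (limma adjusted p = 0.000847) and 0.61 ± 0.15 in the knockout (adjusted p = 0.0158). Its wild-type values were 11.49, 11.28, 11.30, 11.57 and 11.52 untreated and 11.88, 12.29 and 12.58 with TNBS, without overlap, whereas the knockout groups overlapped (10.58 to 11.62 against 11.40 to 12.01). Col5a2, a collagen V chain that helps fibrils nucleate, rose the most of the class in wild type, by 0.98 ± 0.14 (1.98-fold), and by 0.77 ± 0.14 in the knockout, with no overlap in either. Col3a1, which forms fine fibrils with collagen I, was the brightest of the class and rose by 0.39 ± 0.08 and 0.43 ± 0.08. Col5a1 rose by 0.79 ± 0.17 and 0.64 ± 0.17. Col5a3 read 4.71 to 6.05 over all arrays and did not pass (0.48 ± 0.19, limma adjusted p = 0.0895, in wild type, and 0.36 ± 0.18, adjusted p = 0.254, in the knockout).

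The 4 basement membrane chains rose in both genotypes. Col18a1, the source of the fragment endostatin, read 6.19, 6.34, 6.72, 6.50 and 6.77 in untreated wild type and 7.62, 7.81 and 8.28 with TNBS. In the knockout it read 6.84, 6.55, 5.54, 6.26 and 6.13 untreated and 6.61, 7.04 and 7.31 with TNBS. All wild-type TNBS arrays stood above all untreated ones, while in the knockout the groups overlapped. The rise was 1.36 ± 0.18 (2.57-fold, limma adjusted p = 4.59e-05) in wild type and 0.78 ± 0.18 (1.71-fold, adjusted p = 0.0104) in the knockout. Col15a1, a basement membrane collagen next to vessels and muscle, rose by 1.01 ± 0.14 and 0.65 ± 0.13. The paired chains Col4a2 (0.83 ± 0.12 and 0.56 ± 0.12) and Col4a1 (0.60 ± 0.11 and 0.47 ± 0.11) rose too.

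Of the other 7 collagens, 4 rose in each genotype. The 3 chains of the beaded-filament collagen VI rose in both: Col6a1 by 0.71 ± 0.10 and 0.44 ± 0.09, Col6a2 by 0.70 ± 0.09 and 0.46 ± 0.09, and Col6a3 by 0.62 ± 0.11 and 0.38 ± 0.10 (wild type first). Col16a1 rose in wild type (0.40 ± 0.13, limma adjusted p = 0.0386), a call that was lost without any 1 of 9 of the 11 wild-type arrays. Its untreated wild-type replicates 2, 4 and 5 read the same value, 5.572. Col14a1, a collagen bound to fibril surfaces, rose in the knockout (0.80 ± 0.22, adjusted p = 0.0294) and stood at 0.64 ± 0.23 in wild type (adjusted p = 0.0653). Col12a1 and the short-chain collagen Col8a1 passed in neither, with Col8a1 at 0.06 ± 0.21 and 0.03 ± 0.21.

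Lox, the lysyl oxidase that starts collagen and elastin crosslinking, had the largest rise of the 32 genes in both genotypes. It read 6.63, 6.77, 6.58, 6.72 and 7.06 in untreated wild type and 7.30, 8.44 and 9.47 with TNBS. Knockout arrays read 6.45, 7.07, 6.26, 5.47 and 6.24 untreated and 7.11, 7.87 and 8.25 with TNBS. No TNBS array fell within its untreated group, and the TNBS arrays of wild type were widely spread (SD 0.72). The rise was 1.66 ± 0.31 (3.16-fold, limma adjusted p = 0.000927) and 1.43 ± 0.30 (2.69-fold, adjusted p = 0.00585). Loxl1, which crosslinks elastin, rose in the knockout by 0.62 ± 0.13 and missed the threshold in wild type (0.40 ± 0.14, adjusted p = 0.0507). Serpinh1, the collagen chaperone HSP47, read -0.02 ± 0.16 and 0.15 ± 0.15 and did not pass.

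The small proteoglycan biglycan (Bgn), which binds collagen and can signal to immune cells when released, rose by 0.70 ± 0.15 in wild type and 0.58 ± 0.14 in the knockout. Versican (Vcan), a large hyaluronan-binding proteoglycan, passed narrowly in wild type (0.48 ± 0.16, limma adjusted p = 0.0434). The call was lost in 21 of 36 alternative settings, among them leaving out any wild-type array but TNBS replicate 2. Over the arrays whose removal lost it, the limma adjusted p was 0.05 to 0.098. In the knockout Vcan was 0.47 ± 0.15 (limma adjusted p = 0.063). Decorin (Dcn) and lumican (Lum), which regulate fibril spacing, did not pass in either: Dcn was 0.28 ± 0.17 and 0.22 ± 0.16, Lum 0.29 ± 0.17 and 0.18 ± 0.16. Dcn read 11.74, 11.96, 11.45, 11.94 and 11.78 in untreated wild type and 11.79 to 12.31 with TNBS, so its groups overlapped.

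Elastin (Eln), the core of elastic fibres, rose in the knockout by 0.85 ± 0.22 (limma adjusted p = 0.0204) and was 0.17 ± 0.23 in wild type (adjusted p = 0.757). The knockout values were 7.44, 7.47, 7.43, 6.65 and 7.56 untreated and 7.90, 8.11 and 8.48 with TNBS, with no overlap. Replicate 4 was the lowest untreated array, and without it the rise was 0.69 (limma adjusted p = 0.069). The difference between the genotypes' TNBS effects was 0.68 ± 0.32 and did not pass (adjusted p = 0.298).

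Among matricellular and adhesive glycoproteins 4 of 6 rose in wild type and 2 of 6 in the knockout. Fibronectin (Fn1), an adhesive protein of early repair matrix, read 10.96, 10.74, 10.55, 11.09 and 11.04 in untreated wild type and 11.38, 12.05 and 12.35 with TNBS. Its knockout values were 10.58, 10.61, 10.34, 10.56 and 11.01 untreated and 11.03, 11.43 and 11.51 with TNBS. TNBS arrays were above the untreated ones throughout in both genotypes. The rise was 1.10 ± 0.15 (2.15-fold, limma adjusted p = 5.58e-05) and 0.75 ± 0.15 (1.69-fold, adjusted p = 0.00395). Sparc, a collagen-binding protein, rose by 0.34 ± 0.07 and 0.41 ± 0.07. Periostin (Postn), a fibroblast-made adaptor protein, rose in wild type by 0.36 ± 0.09 (adjusted p = 0.0125), and its knockout difference was 0.12 ± 0.09 (adjusted p = 0.514). Thbs1 and Thbs2, the thrombospondins, did not pass in either genotype. Nor did Fap, a serine protease of activated fibroblasts, at 0.08 ± 0.16 in wild type and 0.07 ± 0.16 in the knockout.

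**Figure D2:**
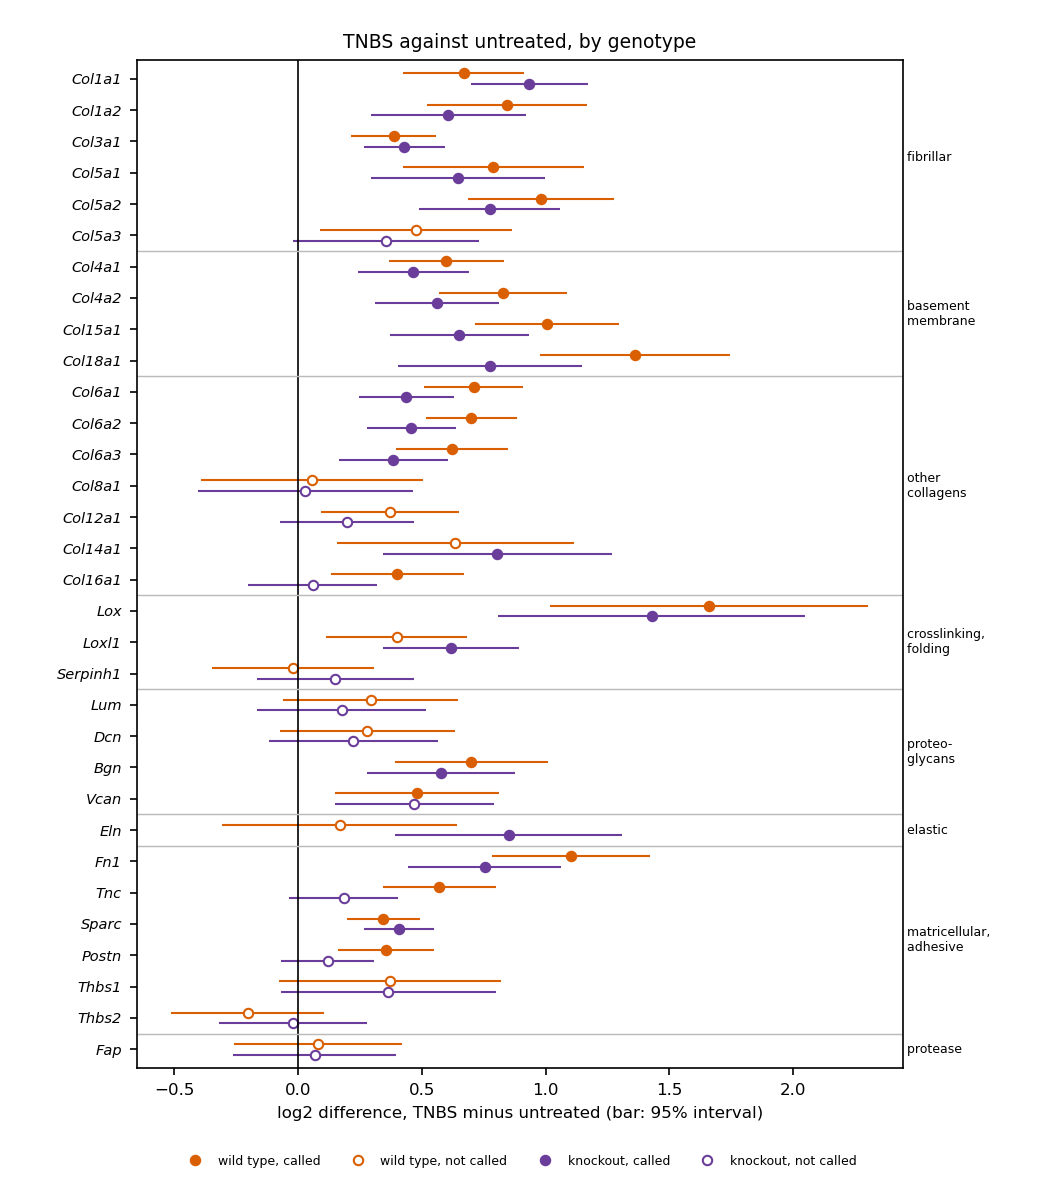
TNBS minus untreated on the log2 scale for each of the 32 genes (points, with 95% intervals as bars), wild type in orange and knockout in purple, filled where the adjusted p is under 0.05. Lox lies farthest right in both, at 1.66 and 1.43.

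Macrophage markers rose with the matrix genes. The 9-gene list averaged 7.69 to 8.08 in untreated wild type, 8.57 to 9.36 with TNBS, 6.96 to 7.75 in the untreated knockout and 7.62 to 8.67 with TNBS; 8 of the 9 rose in wild type and 7 in the knockout, and Itgam read near the lowest value of the data. The fibroblast list (10 genes, none among the 32; Pdgfra, Pdgfrb, Thy1 and others) averaged 8.67 to 9.11, 8.98 to 9.52, 8.44 to 8.99 and 8.73 to 9.17 in the same order, with 3 genes rising in wild type and 2 in the knockout. Endothelial markers averaged 5.49 to 5.60, 5.84 to 6.12, 5.29 to 5.72 and 5.59 to 5.83, and 4 of 8 rose in wild type. Smooth muscle markers (12.04, 12.12, 12.07 and 12.03 as group means) rose in 1 of 8 in wild type and 0 of 8 in the knockout, epithelial markers rose in 1 of 8 in wild type and fell in 2 of 8 in the knockout, and cartilage markers stood at the lowest value in 5 of 6. Fewer cells of a type and less RNA per cell cannot be told apart in bulk tissue, and the part of these markers in the matrix results was not tested.

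The second question was how knockout and wild type differ. Without TNBS, 1 of the 32 genes fell and none rose (limma; background: 1.91% of all genes fell and 2.92% rose). That was Col1a1, lower by 0.52 on the log2 scale (-0.52 ± 0.12, adjusted p = 0.0194), and the call was lost without knockout replicate 4 (-0.49, limma adjusted p = 0.053). All 32 differences were below 0, with a median of -0.22 against 0.03 for the equally bright genes. Of all 18194 genes, 46.4% were above 0 and 7142 were below, with the rest at exactly 0. Among the 32, 4 turned positive without knockout replicate 3. Eln was the gene whose groups did not overlap (7.59 to 8.31 in wild type, 6.65 to 7.56 in the knockout; 2.18% of all genes were so downward and 3.39% upward), yet its adjusted p was 0.129. Leaving out 1 array gave 0 to 3 genes. The fibroblast list was lowest on knockout replicate 3, at 8.44. Skeletal muscle markers (10 genes, among them Acta1, Tnnt3 and Tnni2) averaged 3.00 to 5.26 in untreated wild type and 6.04 to 8.36 in the untreated knockout, with no overlap, and 3 of 10 were called higher in the knockout. With their mean as a covariate no matrix gene was called without TNBS, although the median of the 32 was -0.39 and 0 were positive. Their part in the Col1a1 difference was otherwise not tested.

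With TNBS, 11 of the 32 genes were lower in the knockout and none higher (limma; background: 6.72% of all genes were lower and 3.73% higher, and 9.08% of the equally bright genes were lower). The 32 had a median difference of -0.33, against -0.01 for the equally bright genes. Of the 32, 31 were negative (41.3% of all genes were positive, a share that rounding affects), and Eln was the other, at 0.04. The 11 were 8 collagen chains, fibronectin, tenascin C and periostin: Col1a2, Col5a2, Col4a1, Col15a1, Col18a1, Col6a1, Col6a2, Col16a1, Fn1, Tnc and Postn. Macrophage markers moved the same way, with 8 of 9 lower in the knockout, as did 2 of 10 fibroblast markers and 2 of 8 endothelial ones. Skeletal muscle markers averaged 3.20 to 7.51 in wild type with TNBS and 5.37 to 8.60 in the knockout with TNBS, 0 of 10 were called, and with their mean as a covariate 16 matrix genes were lower. The part of the macrophage, fibroblast and endothelial markers in these differences was not tested. Without wild-type TNBS replicate 2, lowest in 27 genes, 21 genes were called. Leaving out any other wild-type TNBS array gave 6, knockout TNBS replicate 3 gave 7 and replicate 7 gave 5. A fit of these groups alone gave 7, centring arrays on their median or a smooth muscle covariate 5, and the keratinocyte covariate 20.

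Col18a1 differed most, at -0.82 ± 0.17 (limma adjusted p = 0.00389). With TNBS it ran from 7.62 to 8.28 in wild type and from 6.61 to 7.31 in the knockout, so the groups did not overlap. Tnc, a matricellular protein of wounds, differed by -0.48 ± 0.10 (adjusted p = 0.0042), and its groups did not overlap either, at 10.12 to 10.84 against 9.70 to 10.02. These were the 2 genes of the 32 without overlap (2.68% of all genes were so, lower in the knockout, and 0.956% higher). Col15a1 (-0.52 ± 0.13) and Col6a2 (-0.35 ± 0.08), which passed with Col18a1 and Tnc in the 36 alternatives that give each gene 1 value, overlapped. Read probe set by probe set, the dimmer one of Tnc did not pass here (-0.50, limma adjusted p = 0.0903). Fn1 (-0.61 ± 0.14, limma adjusted p = 0.00836) was lost in 1 of the 36, the mean of its probe sets.

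The remaining 6 were Col1a2 (-0.48 ± 0.14, limma adjusted p = 0.0351), Col5a2 (-0.42 ± 0.13), Col4a1 (-0.33 ± 0.10), Col6a1 (-0.31 ± 0.09), Col16a1 (-0.40 ± 0.12) and Postn (-0.30 ± 0.09). In the 36 alternatives Col5a2 lost its call 20 times, Col4a1 19, Col1a2 13, Col16a1 11, Postn 10 and Col6a1 8. Bgn (-0.43 ± 0.14, adjusted p = 0.0503) and Col8a1 (-0.62 ± 0.20, adjusted p = 0.0516) just missed the threshold. Col1a1 stood at -0.25 ± 0.11 (adjusted p = 0.15). Col3a1 (-0.17 ± 0.07), Sparc (-0.18 ± 0.06) and Lox (-0.69 ± 0.28, adjusted p = 0.137) did not pass.

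**Figure D3:**
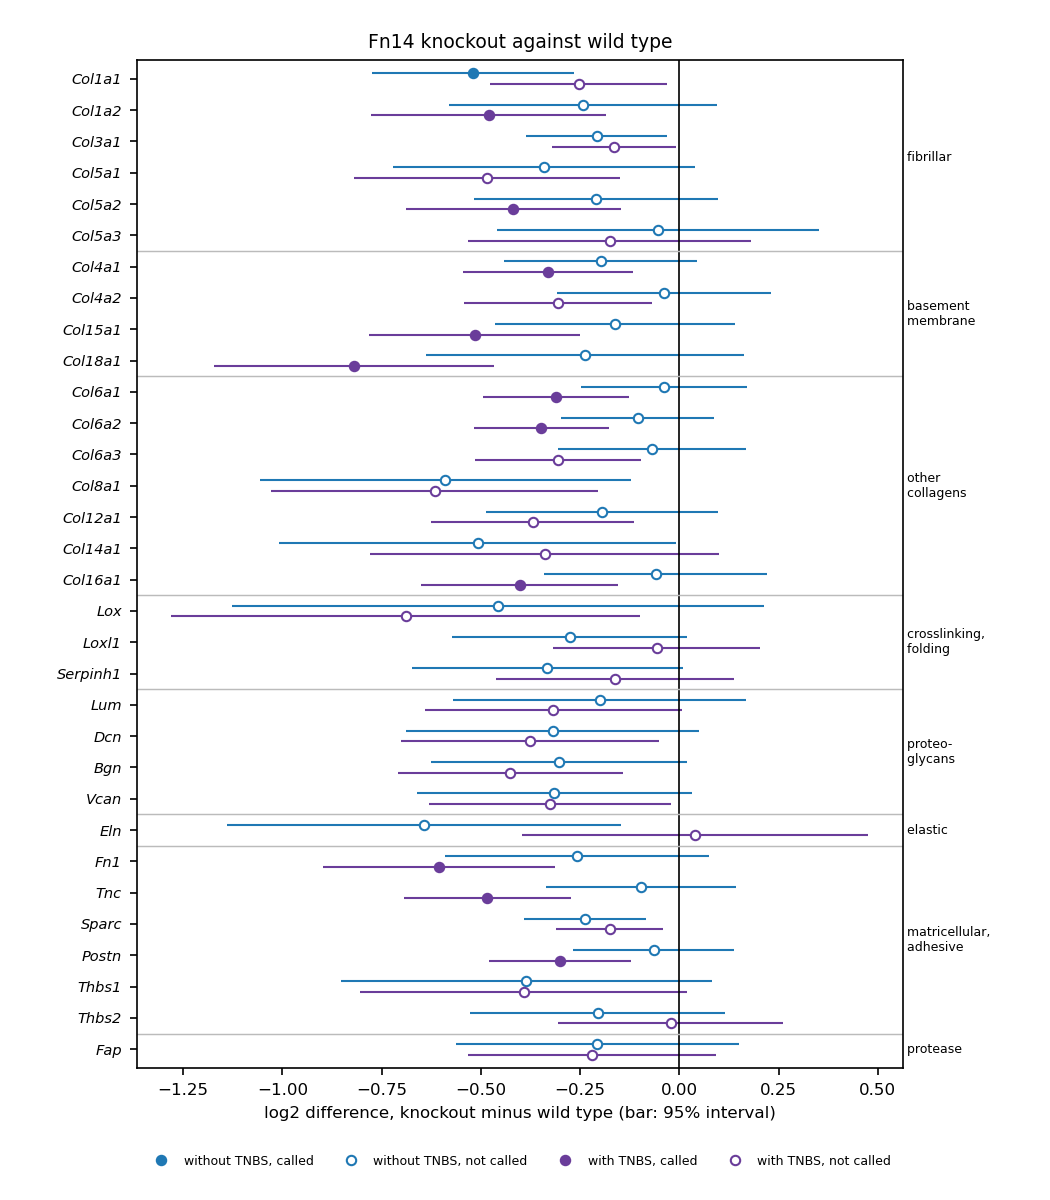
Knockout minus wild type on the log2 scale (points, with 95% intervals as bars) for the 32 genes, without TNBS in blue and with TNBS in purple, filled where the adjusted p is under 0.05. Every point lies below 0 except Eln with TNBS, at 0.04.

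**Figure D4:**
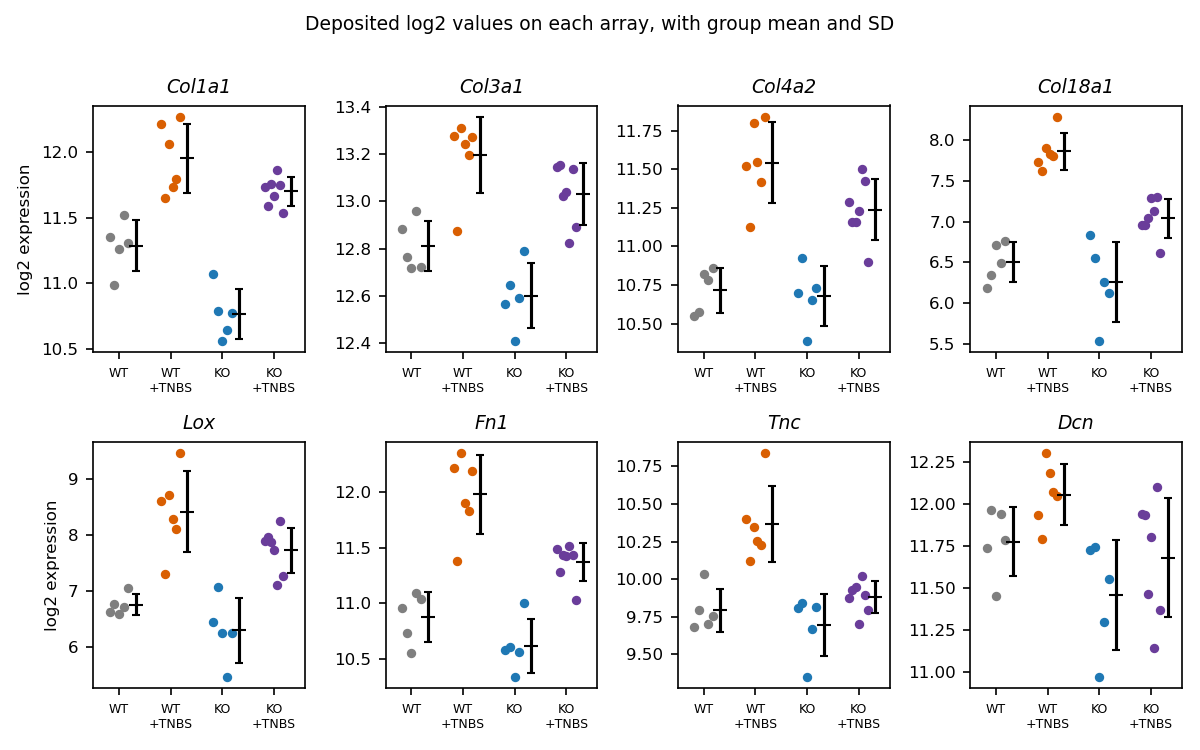
Deposited log2 values of 8 genes on each array, in 4 groups (WT, wild type; KO, knockout), with the mean and SD beside the points. Lox and Fn1 rise with TNBS in both genotypes without overlap, Tnc and Col18a1 are lower in the knockout with TNBS, and Dcn overlaps between TNBS and untreated arrays of each genotype.

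The test of whether the TNBS effect differed between the genotypes called none of the 32 (limma; background: 0.621% of all genes positive and 1.37% negative). At an unadjusted p under 0.05 the count was 3 (Tnc and Col18a1 negative, Eln positive). The share of all genes at that threshold was not counted, so this count has no background. Of the 32 estimates 8 were positive (39.6% of all genes, a share that rounding affects). Their median was -0.13, against -0.05 for the equally bright genes. The median of the 32 was -0.23 without wild-type TNBS replicate 2 and -0.20 without untreated knockout replicate 3. It was -0.06 without wild-type TNBS replicate 3 and -0.08 without its replicate 6, with 5 to 13 estimates positive over all arrays left out in turn. Centring arrays on their median moved the median of all genes by 0.14, and that of the 32 was then 0.01. It was -0.07 with the mean of a gene's probe sets and -0.05 with the smooth muscle covariate. The lowest adjusted p was 0.203, for Tnc (-0.39 ± 0.15), followed by Col18a1 (-0.58 ± 0.26, 95% interval -1.12 to -0.05, adjusted p = 0.263) and Eln (0.68 ± 0.32). A gene called in a single genotype is therefore not shown to differ between them.

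Tnc has another, dimmer probe set (mean 6.46) that did not follow the one above. It read 5.32, 5.37, 5.64, 5.70 and 5.47 in untreated wild type and 6.47, 7.20 and 7.43 (lowest, median, highest) with TNBS. Knockout arrays read 6.78, 6.93, 5.83, 6.33 and 6.65 untreated and 6.32, 6.43 and 6.99 with TNBS. It rose by 1.58 ± 0.20 in wild type (limma over all probe sets, adjusted p = 2.59e-05) and was 0.08 ± 0.19 in the knockout. Knockout was 1.00 ± 0.20 above wild type without TNBS (limma adjusted p = 0.00993) and -0.50 ± 0.18 with it (adjusted p = 0.0903). The TNBS effects differed between the genotypes by -1.50 ± 0.27 (limma adjusted p = 0.0117). All untreated knockout values stood above all untreated wild-type values. The brighter probe set rose less in wild type, by 0.57 ± 0.11 (limma adjusted p = 0.00123), and was 0.18 in the knockout (limma adjusted p = 0.34). Both probe sets were higher with TNBS in wild type, and neither was called in the knockout. They disagree on the untreated genotypes, where the brighter gave -0.10 ± 0.11.

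The other 19 further probe sets with a mean of at least 5 covered 16 more genes. Over all 20, those of called genes were called again in the same direction in 17 of 17 in wild type and 13 of 14 in the knockout. For knockout against wild type this was 5 of 7 with TNBS and 0 of 1 without TNBS (Col1a1, the gene called there). Of those of uncalled genes, 6 of 13 were called for knockout against wild type with TNBS and 1 of 19 without. For TNBS in wild type and in the knockout these were 0 of 3 and 0 of 6. A further Col1a1 probe set rose by 1.11 and 1.03 and was called in the genotype comparison with TNBS (-0.60, limma adjusted p = 0.0257), where the brighter one was not. A further versican probe set (mean 6.06) rose by 0.95 in wild type and, unlike the brightest, was lower in the knockout with TNBS (-0.74, limma adjusted p = 0.0438). A further Thbs2 probe set had the opposite sign, at 0.69 in wild type, and did not pass.

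**Figure D5:**
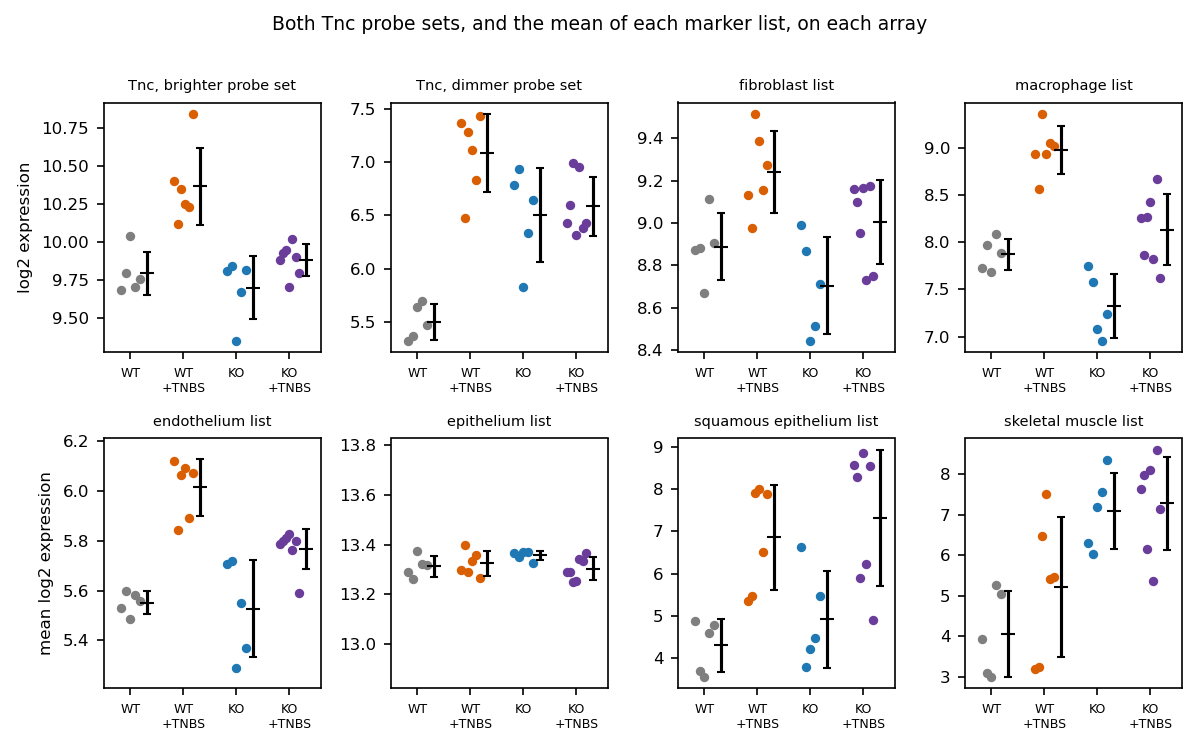
Log2 values of both Tnc probe sets, and the mean of 6 marker lists, on each array in 4 groups (WT, wild type; KO, knockout), with mean and SD. The dimmer Tnc probe set is higher in the untreated knockout than in untreated wild type, while the brighter one is not.

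Related matrix lists were read with the same fit. Of all genes, 10.2% rose and 6.27% fell with TNBS in wild type, and 4.08% rose and 4.47% fell in the knockout. With TNBS, 6.72% of all genes were lower in the knockout than in wild type. Of 14 other basement membrane genes, 11 rose with TNBS in wild type and 1 in the knockout, and 5 were lower in the knockout with TNBS. Laminin alpha 5 (Lama5), a main laminin of epithelium and vessels, rose by 0.96 ± 0.12 in wild type (limma adjusted p = 2.05e-05) from 5.06 to 5.88 untreated to 6.14 to 6.72. In the knockout it was 0.00 ± 0.12 (5.78 to 5.93 untreated, 5.73 to 6.09 with TNBS), and the TNBS effects differed by -0.96 ± 0.17 (limma adjusted p = 0.00762). Both knockout medians were 5.9335, also the highest untreated knockout value, so several arrays read the same value. What such repeats do to the Lama5 differences was not tested. Laminin alpha 3 (Lama3) rose in both, by 1.23 ± 0.17 and 0.77 ± 0.17. Perlecan (Hspg2) was lower in the knockout with TNBS by 0.63 (-0.63 ± 0.12).

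Of 23 collagen modification and processing genes, 14 rose with TNBS in wild type and 3 in the knockout, and 7 were lower in the knockout with TNBS. Colgalt1, which adds galactose to collagen, read 7.25 to 7.59 untreated and 8.04 to 8.20 with TNBS in wild type, a rise of 0.67 ± 0.07 (limma adjusted p = 9.62e-07). In the knockout it was 0.10 ± 0.06, and the TNBS effects differed by -0.57 ± 0.09 (adjusted p = 0.00371). Mrc2, a collagen uptake receptor, rose in both (1.03 ± 0.13 and 0.52 ± 0.13). Lysyl hydroxylase 2 (Plod2) rose in the knockout (0.69 ± 0.20) from a lower level: the untreated knockout was -0.99 ± 0.22 from untreated wild type (limma adjusted p = 0.0128), and the group means were 6.72 and 6.59 in wild type, untreated and with TNBS, and 5.72 and 6.41 in the knockout.

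Other elastic fibre genes rose in 8 of 14 cases in wild type and 4 in the knockout, and 5 were lower in the knockout with TNBS. The rises were 2.02 ± 0.23 and 1.19 ± 0.22 for Emilin2 and 0.75 ± 0.16 and 1.02 ± 0.16 for Mfap4. Of 18 matricellular genes, 8 rose and 1 fell in wild type, and 2 rose and 1 fell in the knockout; Ccn2, the connective tissue growth factor, rose by 1.09 ± 0.18 and 0.81 ± 0.17. Of 18 other proteoglycans 2 rose and 2 fell in wild type and 1 rose in the knockout, led by serglycin (Srgn, 1.30 ± 0.18 and 1.03 ± 0.17), a leukocyte product. Matrix receptors rose in 2 and fell in 1 of 13 in wild type. The beta 1 integrin Itgb1 was lower in the knockout both with TNBS (-0.49 ± 0.06, limma adjusted p = 2.62e-05) and without it (-0.25 ± 0.06, limma adjusted p = 0.0268). Of 24 other collagen chains 2 rose in wild type and 1 fell in the knockout. The TNBS counts given for other proteoglycans, receptors and other chains lay near the shares of all genes.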

How the data were processed

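The values are log2 expression levels of 45101 probe sets per array, as the authors deposited them. RMA and GCRMA are named in the submitters' processing notes; both correct background, normalize between arrays and summarise probes, and neither the one used nor a version is stated there. Values ran from 2.17 to 15.98, with 27.9% at the lowest, and differences of genes there are understated. For arrays the precision is limited by their number. Probe sets naming 1 gene (34958) were used, and those naming several (932) or none (9211) were not. A gene took its probe set of highest mean, for 18194 genes.

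Groups came from the sample labels. The groups' means were fitted over all 23 arrays with limma 3.58.1 (R 4.3.3; 19 residual and 0.475 prior degrees of freedom). The 5 contrasts were tested two-sided, with Benjamini-Hochberg adjustment over all genes and a threshold of 0.05. Errors are SE unless stated. The procedure was tested on simulated arrays. The members of the gene list, the related lists and the marker lists were chosen with earlier results of these data known. Named genes are the 35 listed, up to 4 called genes of smallest adjusted p per related list, and defining markers; others were chosen after their values were seen. Alternatives were trend and robust fits, only the groups compared, weighted arrays, dim genes removed, a floor at log2 5, the mean or the majority of a gene's probe sets, quantile normalization, median centring, the replicate number as a block, covariates for 3 marker lists, and each array left out. Promoter windows came from RefSeq (GRCm38.p6); figures used Python 3.11.15 and matplotlib 3.10.9.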

Additional observations from a re-analysis of the deposited data

Results flagged for a closer look

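Within groups, 11 of 128 sets of values (32 genes in 4 groups) held an array whose gap to the nearest other passed Dixon's 95% value, where chance alone gives about 1 in 20, or 6.4. Wild-type TNBS replicate 2 was the low array for Col3a1 (12.87, nearest 13.2), Vcan (8.02, nearest 8.75) and Postn (11.63, nearest 11.9). Knockout TNBS replicate 7 was low for Col1a2 (11.4, nearest 11.78), Col15a1 (7.3, nearest 7.7) and Col6a1 (10.79, nearest 11). Untreated knockout replicate 3 was low for Col6a1 (10.21, nearest 10.61) and Col16a1 (5.2, nearest 5.47), and replicate 4 for Eln (6.65, nearest 7.43). Untreated wild-type replicate 4 was high for Bgn (11.08, nearest 10.78) and replicate 1 for Thbs1 (8.4, nearest 7.89).

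On wild-type TNBS replicate 2 the fibroblast list averaged 8.98 and the macrophage list 8.57, both the lowest of that group. On knockout TNBS replicate 7 the macrophage list averaged 7.62 and the keratinocyte list 4.90, again the lowest of the group. The part of these markers in the low matrix values was not tested.

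The TNBS effect differed between the genotypes, knockout minus wild type, for the dimmer Tnc probe set (-1.5), Lama5 (-0.96) and Colgalt1 (-0.57). Lama5 and Colgalt1 are not among the 32 genes, and Lama5 read the same value on several knockout arrays. No gene of the 32 passed that test with its brightest probe set.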

How the results depend on the processing

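No value called in either setting changed direction, and 149 of 5728 uncalled values changed sign without being called. Of values of single genes, 1922 kept their side of the threshold under the other settings, 50 gained a call and 76 lost it; leaving out 1 array gave 3546, 42 and 92. Leaving out 1 array gave 18 to 24 genes for TNBS in wild type, 15 to 20 for TNBS in the knockout, 0 to 3 for the genotypes without TNBS, 5 to 21 with TNBS, and 0 for the difference of TNBS effects. For knockout against wild type without TNBS (1 gene), array weights, a filter on dim genes, median centring and a smooth muscle covariate each gave 2, the keratinocyte covariate 3, and the compared groups alone, a skeletal muscle covariate and a majority of probe sets 0. With TNBS (11 genes), the compared groups alone gave 7, median centring, the replicate block and the smooth muscle covariate 5, and the keratinocyte covariate 20. The keratinocyte covariate gave 10 for TNBS in wild type and 2 in the knockout; it differs with TNBS itself. The mean of probe sets gave 1 for the difference of TNBS effects (Tnc). Median centring moved the median of all genes by -0.17 for TNBS in wild type, since genes at the lowest value move with it, so that 1281 of 11471 called genes rose (11.2%, against 62% of 2998); 19 of the 32 then rose and Thbs2 fell. The share of called genes that rose became 33.7% against 60.4% without TNBS, 70.1% against 35.7% with TNBS and 80.6% against 31.1% for the difference of effects, and by quantile normalization 49.7% and 41.6% for the first and last of these. With median centring, member medians were 0.36, 0.42, -0.28, -0.25 and 0.01 in the order of the 5 contrasts. Medians of all genes were -0.17, -0.03, -0.05, 0.09 and 0.14. Centring shifts every gene of an array by the same amount, so it cannot change the distance between members and all genes. Replicate numbers showed no clear pairing of the arrays, though so few pairs cannot exclude it. Of 31 same-numbered pairs 10 had r over 0.1 (-0.46 to 0.431), with a median of 0.03 against 0.002 for other pairs. Of 23 arrays, 4 correlated best with their own number. The replicate block gave 18, 16, 1, 5 and 0 genes. Dim genes, such as Col5a3 and Col16a1, lie nearest the background, and their differences are the least certain.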
